A study of Bos taurus with 39 samples.

Results

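The control oocytes of this series were followed through in vitro maturation with 9 small RNA libraries, 3 each at 1, 6 and 22 h, out of 39 libraries in the whole series. They were chosen by their titles, as the libraries called control at these times, and no measured value entered the choice. All 9 came from bovine oocytes that matured inside intact cumulus-oocyte complexes (COCs) from slaughterhouse ovaries, in serum-free TCM-199 medium with epidermal growth factor and without carbenoxolone (CBX), the gap junction blocker given to another group. The age and breed of the cows were not stated. Cumulus cells were stripped by vortexing in hyaluronidase before RNA was extracted, and each library pooled 30 oocytes from 2 cultures of 15. The study placed these times at the germinal vesicle (1 h), germinal vesicle breakdown (6 h) and metaphase II (22 h) stages. Its methods state that oocytes with a visible polar body were kept and do not say for which times. Stage was not recorded per library. Control libraries at 0 h were not used here.

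MicroRNAs (miRNAs) are short RNAs that guide Argonaute proteins to complementary sites in messenger RNAs, mostly through bases 2 to 8 of the miRNA (the seed), and lower the stability or translation of those messengers. The growing oocyte stores messengers and miRNAs, transcription falls silent before maturation, and the oocyte then resumes meiosis on its stored RNA while cumulus cells remain joined to it by gap junctions.

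The count tables hold known bovine miRNAs from miRBase and miRNAs predicted by the authors' pipeline from these reads, called predicted miRNAs below. The study lists mature sequences for 18 of the predicted ones. Those of the 5 that recur in the results below are given here 5′ to 3′ with the seed in capitals, because the names alone carry no family information:
predicted miR-485: gGGGAUGUagcucagugg
predicted miR-484: gGGGGUGUagcucagugg
predicted miR-457: uCCCCGGCaccuccacca
predicted miR-432: uGCGGGAUcuuuaguugugg
predicted miR-906: gAGGGAUCccugccuagcggg
Predicted miR-484 and predicted miR-485 are both 18 bases long and differ by 1 base inside the seed, G5A when miR-484 is taken as the reference and positions are counted from 1 at the 5′ end. The letters of both resemble the 5′ end of alanine transfer RNAs, which is background knowledge. None of the 5 sequences was compared with transfer RNAs here, so a resemblance of the others was not checked. No 2 of the 5 share a seed.

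The counts assigned to miRNAs were low and uneven. They are a small part of the deduplicated reads the study reports per sample, so they do not measure sequencing depth. Whether a low total came from few reads sequenced or from few assigned to miRNAs was not tested. Total counts ranged from 59384 to 91455 at 1 h, from 20180 to 56935 at 6 h and from 74337 to 131920 at 22 h. The detection floor was taken as 3 counts. Before any further normalization this floor corresponds to between 22.7 and 148.7 CPM, counts scaled to a common library total. The 6 h replicate 1 library stood apart. It held the 20180 counts, its 10 most abundant miRNAs took 50.3% of them, and its log2 levels correlated with those of the other 8 libraries at 0.70 to 0.82, against 0.79 to 0.95 among the other libraries. In all, 1279 miRNAs had at least 1 count in the 9 libraries, 378 known and 901 predicted, and 617 had a count in every library. Of the predicted miRNAs, 388 shared their exact counts with another one and cannot be told apart by these data, which left 662 distinct profiles. Levels below are trimmed mean of M-values (TMM) normalized CPM on a scale common to the 9 libraries. They are relative to a library's rescaled total, so they are neither plain shares of its counts nor amounts per oocyte. On this scale 3 counts in 6 h replicate 1 are 184 CPM.

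The most abundant miRNAs were ranked by their mean level over the 9 libraries. Among known miRNAs, bta-miR-16b, of the cell-cycle-related miR-15/16 family, ranked first with 55192 to 105009 CPM over the 9 libraries (median 73676). It was followed by bta-miR-10b, encoded in a Hox cluster, at 39176 to 106300 CPM (median 48631), and by bta-miR-148a at 17223 to 73776 CPM (median 35470). The let-7 family, known for restraining proliferation and promoting differentiation, placed bta-let-7a-5p (15582 to 53365 CPM), bta-let-7f (11108 to 35290 CPM) and bta-let-7i (8611 to 33999 CPM) among the 10 highest. The others were bta-miR-122 (7646 to 19674 CPM), best known as the abundant miRNA of liver, bta-miR-16a (6517 to 22380 CPM), bta-miR-30d (9417 to 18936 CPM) and bta-miR-7 (9652 to 14446 CPM). On the TMM scale, 8 of these 10 had their highest value in 6 h replicate 1, the library with the lowest total count. The lowest values of bta-miR-16a and bta-miR-7 also fell in that library. Among predicted miRNAs the highest levels were those of predicted miR-212 (62046 to 110926 CPM), predicted miR-787 (64724 to 84228 CPM), predicted miR-777 (20104 to 48136 CPM), predicted miR-948 (12144 to 20392 CPM) and predicted miR-304 (10104 to 16205 CPM), the last of which shares its counts with other entries. The X-linked miRNAs around miR-105 and miR-506, known mainly from germ cells, were all 5 detected and summed to between 6956 and 10667 CPM. These levels were not compared with those of another cell type and are no check of oocyte identity. No messenger RNA was counted.

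Between 1 h and 22 h, from the start to the end of maturation, 2 of the 455 miRNAs tested passed the threshold (0.44%), bta-miR-155 and bta-miR-21-5p, and both were higher at 22 h. Here and below, a miRNA passed when edgeR's quasi-likelihood test, with replicate number as a block, gave it a Benjamini-Hochberg adjusted p under 0.05 and a fold change of 1 or more on the log2 scale. A further 38 miRNAs had an unadjusted p under 0.05 without passing, which makes 40 in all (8.79%), 20 higher (4.4%) and 20 lower (4.4%). The median log2 fold change over all miRNAs tested was -0.01. Libraries of the 2 times did not overlap for 24 miRNAs with higher values at 22 h (5.27%) and for 16 with lower values (3.52%). All such numbers, here and below, count each entry, so predicted miRNAs with identical counts enter more than once. The 455 entries tested held 379 distinct profiles. The 402 tested from 1 h to 6 h held 332, and the 416 from 6 h to 22 h held 341.

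MicroRNA-155, processed from a host transcript known for its induction in activated immune cells, gave the clearest change. Counts of bta-miR-155 were 26, 29 and 10 in replicates 1, 2 and 3 at 1 h, at least 77 in each 6 h library, and 840, 911 and 361 at 22 h. In normalized levels these were 289, 468 and 158 CPM at 1 h, 4734, 1835 and 2468 CPM at 6 h, and 6777, 13061 and 3912 CPM at 22 h. Every 6 h library lay above every 1 h library and every 22 h library above every 1 h library, whereas the 6 h and 22 h libraries overlapped. The mean went from 305 ± 156 CPM (SD, n = 3) at 1 h to 3012 ± 1524 at 6 h and 7917 ± 4679.7 at 22 h. From 1 h to 22 h bta-miR-155 rose 24.9-fold in the fitted model (4.64 on the log2 scale, standard error (SE) 0.25, edgeR adjusted p = 2.3e-09), and within the 3 replicates the ratio of 22 h to 1 h was 23.4, 27.9 and 24.7. An exact two-sided permutation test over the 6 libraries gave p = 0.1, the smallest that 3 against 3 allows.

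The other miRNA that passed, bta-miR-21-5p, is an abundant miRNA of many cells and is known in the ovary for supporting granulosa and cumulus cell survival. Its counts were 522, 202 and 241 at 1 h, 61, 162 and 212 at 6 h, and 1159, 720 and 716 at 22 h. These correspond to 5810, 3263 and 3818 CPM at 1 h, 3750, 3267 and 3442 CPM at 6 h, and 9351, 10323 and 7759 CPM at 22 h. The 22 h libraries all lay above the 6 others, and the 1 h and 6 h libraries overlapped. From 1 h to 22 h bta-miR-21-5p rose 2.14-fold (log2 fold change 1.10, SE 0.21, adjusted p = 0.0151 from edgeR, higher in 3 of 3 replicates, exact permutation p = 0.1). This call was less firm than that of bta-miR-155. Without the replicate block the log2 fold change was 1.07 with an adjusted p of 0.38, and without replicate 2 it was 0.84 with an adjusted p of 0.27. It passed in 11 of the 18 alternatives tried, whose fitted values lay between 0.84 and 1.34.

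**Figure D1:**
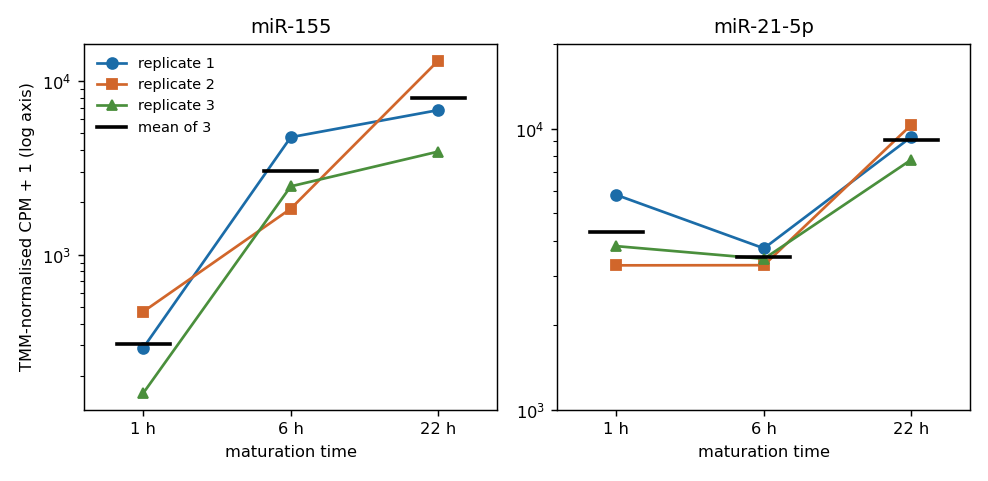
Levels of miR-155 (left) and miR-21-5p (right) in the 9 control libraries, as TMM-normalized CPM plus 1 on log axes against maturation time, with 1 line per replicate number and a bar at the mean of the 3 libraries. The miR-155 points climb from between 158 and 468 CPM at 1 h to between 3912 and 13061 CPM at 22 h, while the miR-21-5p points stay between 3263 and 5810 CPM at 1 and 6 h and lie between 7759 and 10323 CPM at 22 h.

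Markers of cells that could be carried over with the oocytes were listed beside these gains. Of 18 miRNAs listed as cumulus and granulosa markers, bta-miR-21-5p among them, 16 had a count and 8 were tested from 1 h to 22 h. Besides bta-miR-21-5p, none passed, 3 had an unadjusted p under 0.05 with a fitted value below 0 (over all miRNAs tested, 20 of 455, 4.4%), and the median of the 8 log2 fold changes was -0.22. Those 3 were bta-miR-202 (log2 fold change -0.99, adjusted p = 0.30), a miRNA of the gonads, bta-miR-199a-3p (-1.10, adjusted p = 0.44, higher in 1 of 3 replicates) and bta-miR-424-5p (-0.65, adjusted p = 0.44). The summed level of the list without bta-miR-21-5p and the abundant bta-miR-10b was between 6138 and 6512 CPM at 1 h, between 3670 and 5585 CPM at 6 h and between 4099 and 5971 CPM at 22 h. Of the 14 such markers with a count, 7 had no more than 6 counts in any library. The part of carried-over cumulus RNA in the bta-miR-21-5p result was not tested. In these pooled samples fewer cumulus cells and less RNA per cumulus cell cannot be told apart. Of 7 blood and immune markers, 6 had a count and 1 was tested. The red cell miRNAs bta-miR-451, bta-miR-486 and bta-miR-144 had 0 to 3 counts in every library, and bta-miR-223 of myeloid cells had 11 counts in 1 h replicate 1 and 0 to 3 elsewhere. The tested member was bta-miR-150, a miRNA of lymphocytes, which had 2 to 73 counts, or 123 to 590 CPM, and a log2 fold change of -0.04 (adjusted p = 0.96). The summed level of the blood and immune list was between 436 and 790 CPM at 1 h, between 123 and 504 CPM at 6 h and between 499 and 597 CPM at 22 h. The other members of the list of immune-related miRNAs that holds bta-miR-155, bta-miR-146a and bta-miR-146b, which act in feedback on inflammatory signalling, had log2 fold changes of -0.12 and 0.43 (adjusted p = 0.91 and 0.60).

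Below the threshold, the predicted miRNA with the highest level showed a small and even difference. Predicted miR-212 was at 82226, 79405 and 62046 CPM at 1 h, at 90868, 85689 and 66208 CPM at 6 h, and at 104569, 110926 and 83673 CPM at 22 h. Each 22 h library lay above each 1 h library. From 1 h to 22 h it differed by 0.40 on the log2 scale (SE 0.08, edgeR adjusted p = 0.0151), which is under the fold threshold. Predicted miR-210, predicted miR-377 and those of the next paragraph were chosen after their values were seen. Predicted miR-210 (log2 fold change 1.90, adjusted p = 0.062) rested on 9, 4 and 3 counts at 1 h and 30, 35 and 14 at 22 h. Predicted miR-377 (-1.19, adjusted p = 0.093) had 43, 41 and 40 counts at 1 h and 29, 25 and 19 at 22 h. In each replicate the 22 h library had the higher total count.

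Predicted miR-485, whose sequence is printed above, had the most negative fitted change from 1 h to 22 h among miRNAs with an unadjusted p under 0.05. Its levels were 1224, 9158 and 15670 CPM at 1 h, 1844, 12746 and 1688 CPM at 6 h, and 960, 4875 and 802 CPM at 22 h. The value was lower at 22 h than at 1 h in 3 of 3 replicates, yet the groups overlapped, because replicate 1 was already low at 1 h and replicate 2 was still high at 22 h. In the fit it was lower by a log2 fold change of -1.76, with an SE of 0.53 and an adjusted p of 0.30. It passed without replicate 2 (-2.35, adjusted p = 5.9e-07) and was -0.63 without replicate 3 (adjusted p = 0.50), so the size rested on single replicates. Predicted miR-484, 1 base away in sequence, stood at 289, 646 and 380 CPM at 1 h and 169, 645 and 358 CPM at 22 h (log2 fold change -0.28, adjusted p = 0.79). Predicted miR-484 shares its counts with predicted miR-486 and predicted miR-504, so these levels are not those of 1 entry alone. Whether the counting kept reads of the near-identical predicted miR-484 and predicted miR-485 apart was not tested. Predicted miR-457 was lower in 3 of 3 replicates, with 601, 856 and 491 CPM at 1 h and 266, 516 and 368 CPM at 22 h (log2 fold change -0.80, adjusted p = 0.44).

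The miRNA families gave no further calls between 1 h and 22 h. Of the 9 let-7/miR-98 miRNAs, 8 were tested, 7 of their fitted values were above 0 with a median of 0.19, and 2 had an unadjusted p under 0.05 with a higher value (over all miRNAs tested, 20 of 455, 4.4%). These were bta-let-7a-5p (log2 fold change 0.36, adjusted p = 0.44) and bta-let-7f (0.37, adjusted p = 0.44). The miR-15/16 family had 8 tested members and a median of -0.16, and the miR-17-92 cluster with its paralogs, known for promoting the cell cycle, had 9 tested members and a median of -0.08. In the miR-29 family, which targets collagens and DNA methyltransferases, bta-miR-29c had 245, 113 and 206 CPM at 1 h and 80.7, 71.7 and 130 CPM at 22 h (log2 fold change -1.06, adjusted p = 0.44). In the miR-10 and miR-99 families bta-miR-99a-5p had 323, 178 and 269 CPM at 1 h and 145, 86.0 and 173 CPM at 22 h (-0.96, adjusted p = 0.44). These last 2 rest on 5 to 29 counts a library. The 19 members of the imprinted miR-379 cluster with a count, of 52 in the table, were too low to be tested, as were all but 2 of the 32 detected members of the ruminant-specific miR-2284 family, related miR-2285 members included, of 148 in the table.

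**Figure D2:**
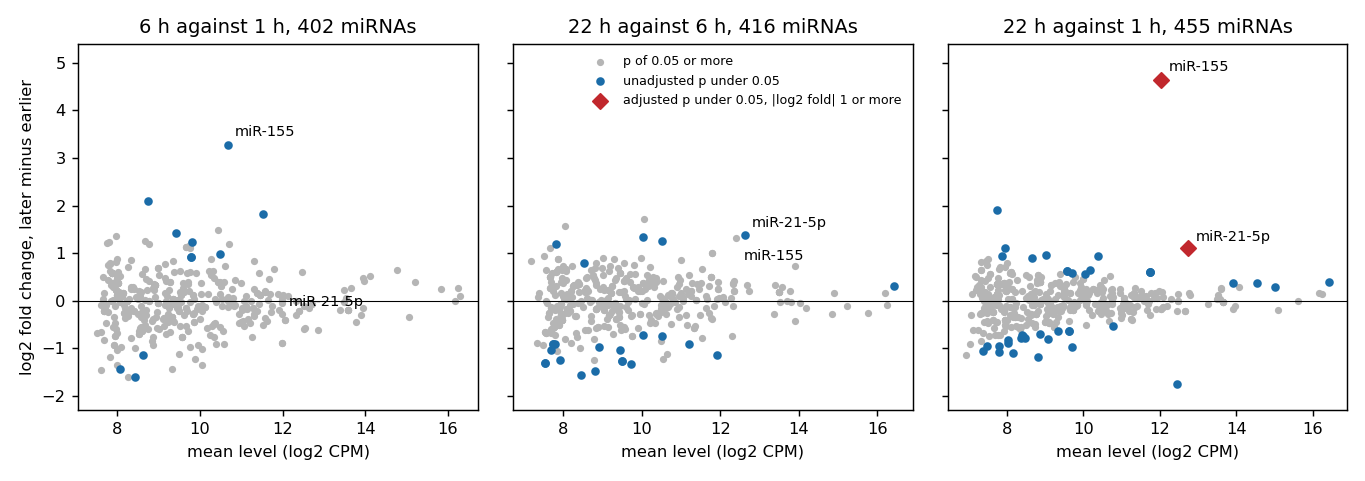
Fitted log2 fold change (later minus earlier time) of every miRNA tested in the 3 comparisons, against its mean level in log2 CPM. Red diamonds mark adjusted p under 0.05 with a fold of 1 or more on the log2 scale and appear only in the 22 h against 1 h panel, for miR-155 at 4.64 and miR-21-5p at 1.10. Blue points mark an unadjusted p under 0.05.

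Taking maturation in its 2 steps, no miRNA passed between 1 h and 6 h, the interval in which the germinal vesicle breaks down. Of 402 miRNAs tested with edgeR, 0 were called (0%), 11 had an unadjusted p under 0.05 (2.74%), 8 higher (1.99%) and 3 lower (0.746%), and DESeq2 called 1, bta-miR-155. In edgeR the log2 fold change of bta-miR-155 was 3.27 (SE 0.51, adjusted p = 0.125, exact permutation p = 0.1), and in DESeq2 it was 3.35 (adjusted p = 2.2e-05). It also passed in edgeR without replicate 2 (3.92, adjusted p = 1.6e-05) and without replicate 3 (2.97, adjusted p = 0.035). The ratio of 6 h to 1 h was 16.4 in replicate 1, 3.92 in replicate 2 and 15.6 in replicate 3, so replicate 2 gained most of its bta-miR-155 in the second step, 7.12-fold against 1.43-fold and 1.59-fold in the others. For bta-miR-21-5p the log2 fold change from 1 h to 6 h was -0.28 (adjusted p = 0.93).

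The other miRNAs with the smallest p-values from 1 h to 6 h were chosen after their values were seen. Predicted miR-399 had 67, 210 and 190 CPM at 1 h against 676, 645 and 649 CPM at 6 h (log2 fold change 2.09, adjusted p = 0.60), on 6 to 40 counts a library, with no overlap between the groups. Predicted miR-515 had 156, 646 and 317 CPM at 1 h against 738, 1230 and 796 CPM at 6 h (1.42, adjusted p = 0.93). On the lower side predicted miR-520 had 278, 452 and 555 CPM against 61.5, 161 and 194.8 CPM (-1.60, adjusted p = 0.70), where the 61.5 CPM are 1 count. In the miR-34 family, known as targets of p53, bta-miR-34b had 367, 226 and 349 CPM against 61.5, 121 and 130 CPM (-1.44, adjusted p = 0.93). Libraries of the 2 times did not overlap for 46 miRNAs, 23 higher (5.72%) and 23 lower (5.72%).

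Between 6 h and 22 h, from germinal vesicle breakdown to metaphase II, again no miRNA passed. Of 416 tested with edgeR, 0 were called (0%), 24 had an unadjusted p under 0.05 (5.77%), 6 higher (1.44%) and 18 lower (4.33%), and DESeq2 called 0. Groups did not overlap for 8 miRNAs with higher values (1.92%) and 28 with lower values (6.73%). The smallest p-value belonged to bta-miR-21-5p, 2.61-fold higher at 22 h (log2 fold change 1.39, SE 0.20, unadjusted p = 0.0015, adjusted p = 0.567, exact permutation p = 0.1). Its ratio of 22 h to 6 h was 2.49, 3.16 and 2.25 in replicates 1, 2 and 3. For bta-miR-155 the log2 fold change was 1.31 (adjusted p = 0.79, exact permutation p = 0.2). In a fit over 36 libraries bta-miR-21-5p passed in this step (1.41, adjusted p = 0.0023 from edgeR). That fit estimated the spread of each miRNA from all groups and used another quasi-likelihood setting than the comparisons of 2 times.

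The predicted miRNAs named for this step were chosen after their values were seen. Among the 18 with lower values at 22 h, predicted miR-432 had 799, 423.5 and 438 CPM at 6 h against 234, 172 and 140.9 CPM at 22 h (log2 fold change -1.56, adjusted p = 0.567). Predicted miR-637 had 5103, 2017 and 2744 CPM against 1977, 1419 and 1485 CPM (-0.92, adjusted p = 0.79). In the list of cumulus and granulosa markers bta-miR-132, known to be induced by luteinizing hormone in granulosa cells, had 369, 262 and 194.8 CPM against 145, 129 and 108 CPM (-1.05, adjusted p = 0.79). Of the 7 markers tested on that list in this step, 4 had fitted values above 0 and 3 below, with a median of 0.06 against 0.00 over all 416 miRNAs. Higher values came with bta-miR-15a, at 123, 545 and 1055 CPM against 1154, 946 and 2070 CPM (1.33, adjusted p = 0.79), and with predicted miR-906, at 615, 363 and 1867 CPM against 1396, 1763 and 2536 CPM (1.25, adjusted p = 0.79). In both, the lowest 6 h values rested on few counts, 2 for bta-miR-15a in 6 h replicate 1.

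Several of these miRNAs had fitted values of opposite sign in the 2 steps. Of 8 miRNAs with an unadjusted p under 0.05 and a higher value at 6 h than at 1 h, 7 had a fitted value below 0 from 6 h to 22 h, and 4 had an unadjusted p under 0.05 there too. The 8 and the 7 both include predicted miR-165 and predicted miR-166, whose values were identical. Both steps use the same 6 h libraries, so an error in these moves the 2 values in opposite directions, and the side-by-side values are given as a description only. Predicted miR-399, predicted miR-515 and predicted miR-432 had 6 h means of 657 ± 16.8, 921 ± 269 and 554 ± 213 CPM (SD, n = 3), against 156 ± 77.6, 373 ± 250 and 231 ± 145 CPM at 1 h and 242 ± 103, 465 ± 221 and 182 ± 47.4 CPM at 22 h. The reverse course was seen in bta-miR-34b, with means of 314 ± 76.7, 104 ± 37.2 and 254 ± 71.9 CPM (SD, n = 3) at 1, 6 and 22 h. Of bta-miR-34b, 1, 6 and 8 counts were all that the 6 h libraries held.

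A single test over the 3 times asked whether a miRNA differed at any of them. It used the quasi-likelihood setting of the fit over 36 libraries, so its p-values differ in method from those of the pairwise comparisons. Of 456 miRNAs tested, 1 passed an adjusted p of 0.05 (0.219%), bta-miR-155 (adjusted p = 0.026 from edgeR), and 23 had an unadjusted p under 0.05. The next was bta-miR-21-5p (adjusted p = 0.154).

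Replicate number separated the libraries more than time did. The study used ovary pools as batches. Replicate number stood in for the pool here, but the labels do not say that they are the same. Over 456 miRNAs the median share of the variance in log2 CPM that went with replicate number was 33.9% and that with time 19.0%. Without any effect the mean share of each would be 25%. In the 6 libraries at 1 and 22 h, which leave out 6 h replicate 1, replicate number took a median of 54.0% and time 10.8%. Mean shares without any effect would be 40% and 20%. A median share without effect need not equal such a mean and was not computed, so time is not shown to fall below it. Time took the larger share for 179 of the 456 miRNAs over 9 libraries and for 107 over these 6. Median correlations were 0.94 between libraries of the same replicate number and 0.88 between libraries of the same time.

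**Figure D3:**
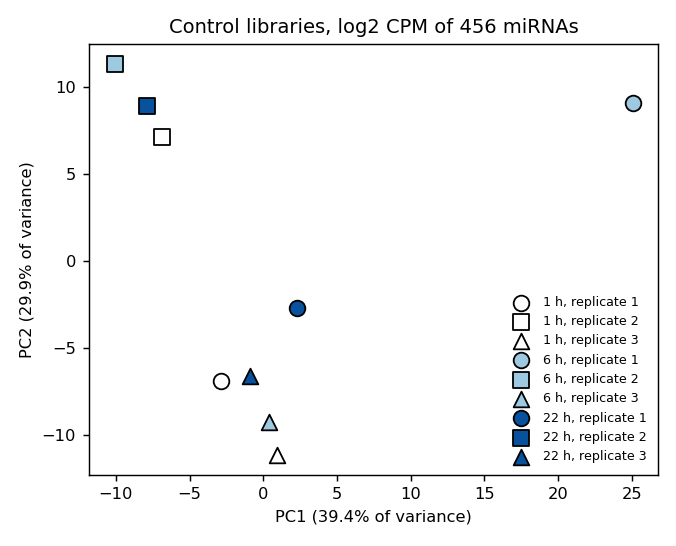
Principal components of log2 CPM of 456 miRNAs in the 9 control libraries, with symbol shape for replicate number and fill for time. The first component (39.4% of variance) sets the 6 h replicate 1 library apart, and the second (29.9%) sets the 3 libraries of replicate 2 apart from those of replicate 3 at each of the 3 times.

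Some miRNAs were present in 1 replicate number at all 3 times and nearly absent from the others. The clearest was bta-miR-206, a miRNA of skeletal muscle, with 296, 610 and 172 counts in replicate 2 at 1, 6 and 22 h and 0 to 5 counts in the 6 other libraries. The muscle miRNA bta-miR-1 did not share this pattern, with 4, 5 and 3 counts in replicate 2 and 0 to 18 elsewhere, and bta-miR-133a had 2 counts in 1 library. A weaker form was seen in bta-miR-184, abundant in the eye and brain, which had 194, 575 and 203 counts in replicate 2 against 12 to 116 elsewhere, and reached 984 CPM in 6 h replicate 1 and 1257 CPM in 22 h replicate 3. Its log2 fold change from 1 h to 6 h was 1.83 (adjusted p = 0.61), with 134, 3134 and 190 CPM at 1 h and 984, 11596 and 325 CPM at 6 h. Predicted miR-624, which shares its counts with another entry, had 28, 56 and 63 counts in replicate 2 and 0 or 1 elsewhere, and predicted miR-195 had 77, 33 and 52 counts in replicate 3 and 0 elsewhere. In all, 76 of the 456 miRNAs had 1 replicate number whose 3 libraries lay above the 6 others, 15 in replicate 1, 32 in replicate 2 and 29 in replicate 3. Entries with identical counts are counted separately among the 76. These were singled out after their values were seen, and the origin of the pattern was not tested.

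**Figure D4:**
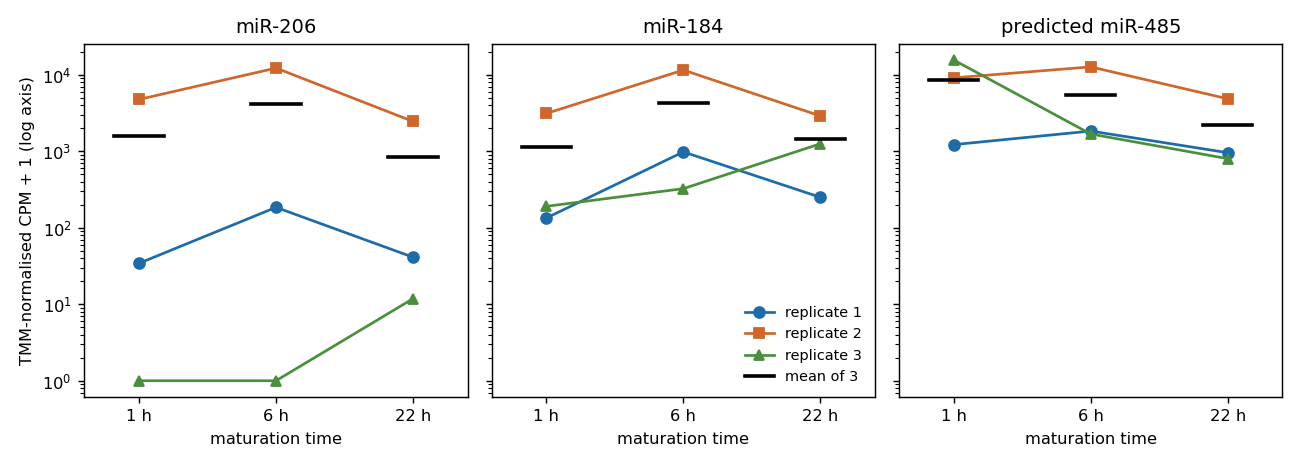
Levels of miR-206, miR-184 and predicted miR-485 in the control libraries, as TMM-normalized CPM plus 1 on a log axis against maturation time, with 1 line per replicate number and a bar at the mean of 3. Replicate 2 lies above the others at every time for miR-206 (2466 to 12302 CPM) and miR-184 (2910 to 11596 CPM), whereas predicted miR-485 is highest in replicate 3 at 1 h and in replicate 2 at 6 and 22 h.

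The same contrasts were made in the 3 other groups, COCs given CBX, denuded oocytes matured in the shared medium of COCs without contact (co-culture) and denuded oocytes alone (DO), to see whether the control course differed. The study's methods state a pronase treatment of denuded oocytes to remove the zona. They do not say whether oocytes taken from COCs received it, and its part in the group differences was not tested. With the group by time term tested in each of 9 combinations, 0 of 469 to 547 miRNAs passed in any (0%) with edgeR, and 8 to 30 had an unadjusted p under 0.05. Without the replicate block 0 passed as well, and 5 to 22 had an unadjusted p under 0.05. Each of these tests used the same control libraries, and the quasi-likelihood setting of the test over the 3 times. From 1 h to 22 h the log2 fold change of bta-miR-155 was 4.64 (SE 0.25) in control, 4.41 (0.33) in DO, 3.40 (0.53) in co-culture and 2.59 (0.74) in CBX, and it passed in DO and control only. Its differences from control were -2.20 for CBX (unadjusted p = 0.014 from edgeR, adjusted p = 0.72), -1.16 for co-culture and -0.22 for DO. For bta-miR-21-5p the log2 fold change was 1.10 (SE 0.21) in control, 0.52 (0.22) in DO, 0.26 (0.21) in co-culture and -0.01 (0.29) in CBX. Its differences from control were -1.16 for CBX (unadjusted p = 0.0056 from edgeR, adjusted p = 0.70), -0.88 for co-culture (adjusted p = 0.996) and -0.54 for DO (adjusted p = 0.79). None of these differences passed after adjustment.

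**Figure D5:**
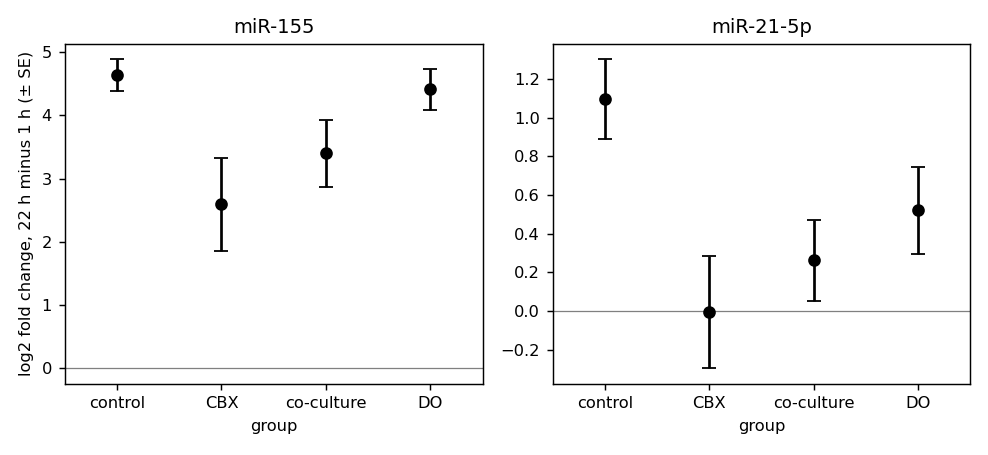
Log2 fold change from 1 h to 22 h of miR-155 (left) and miR-21-5p (right) in each of the 4 groups, each from its own 6 libraries, with bars of 1 standard error from edgeR. Control has 4.64 for miR-155 and 1.10 for miR-21-5p, and CBX has 2.59 and -0.01.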

How the data were processed

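Small RNA of bovine oocytes was sequenced from QIAseq miRNA libraries. The authors trimmed and deduplicated reads by molecular identifier, aligned them to ARS-UCD1.2 and annotated them with miRPro against miRBase, and the deposited values are raw counts per mature miRNA, known and predicted. The submitters' processing notes name FastQC 0.11.9 and UMI-tools 1.1.2. Counting across near-identical sequences was not given in the sources used here. From these counts, edgeR 4.0.16 (R 4.3.3) compared each pair of times within the 6 libraries concerned, using TMM normalization, filterByExpr (count 10 or more, total 15 or more), replicate number as block, quasi-likelihood F test, Benjamini-Hochberg adjustment. DESeq2 1.42.0 was an alternative. Fits were also run on simulated data with the same spread for every miRNA and no outlying library. That run is no check of how they behave in these data. Calls needed an adjusted p under 0.05 together with a log2 change of 1 or more in size. The replicate number follows the labels, and the study's methods used the ovary pool as batch. Same-numbered libraries deviated together (correlation of deviations 0.22 to 0.44) except in replicate 1 from 1 h to 6 h (-0.16). Nothing in the labels says more about how replicates were separated, so p-values measure the spread between these libraries. Floors cover counting error only. Named miRNAs were, by rule, those that passed, the 10 known and 5 predicted with the highest mean CPM, and members of the listed families, and others are said to be chosen after their values were seen. The members and lists were chosen with earlier results of these data known.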

Additional observations from a re-analysis of the deposited data

How the results depend on the processing

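Of 726 values for named miRNAs under alternatives, 700 kept their direction and side of the threshold, 18 passed newly, 7 no longer passed and 1 changed sign (predicted miR-212 from 1 h to 6 h without a low-count filter, -0.072). All 7 were bta-miR-21-5p from 1 h to 22 h, while bta-miR-155 passed there in all 18 alternatives (4.56 to 4.82). These 2 results were the only named ones that passed in the main fit. Most of the 700 were therefore values that stayed under the threshold, which is a weak check. The alternative without a fold threshold reused the main fit, so its fitted values and p-values could not move. Calls from 1 h to 22 h numbered 2, and became 1 without the replicate block, with TMM factors from known miRNAs only, with DESeq2, in a single fit over the 9 control libraries and in one over 8 of them without 6 h replicate 1, 0 with predicted miRNAs only, 8 without a low-count filter, and 2 to 4 when a replicate was left out (4 without replicate 2 and 4 without replicate 3). The 1 h to 22 h comparison does not itself hold 6 h replicate 1, so the fit over 8 libraries differs from it in form, as the fit over 9 does. Both of these fits also used the other quasi-likelihood setting. From 1 h to 6 h the 0 calls became 1 with library sizes from deduplicated reads, 1 with DESeq2, 2 with known miRNAs only, 9 without the filter and 0 to 1 when a replicate was left out. From 6 h to 22 h the 0 became 2 without the filter and 1 in a fit over 36 libraries. The test over 3 times gave 12 calls without the filter and 0 to 1 when a replicate was left out (0 without replicate 1 and 0 without replicate 3). Without the replicate block the counts were 0 from 1 h to 6 h, 0 from 6 h to 22 h and 1 over the 3 times, and the pairing changed no other call. Library sizes from deduplicated reads brought the median log2 fold change of all miRNAs to 0.26 from 6 h to 22 h and to 0.21 from 1 h to 22 h. Leaving out 6 h replicate 1 was added after seeing the data. The causes were not tested. Detection was limited to about 3 counts, and the libraries at 6 h had the lowest totals of counts assigned to miRNAs.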

Other observations

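Outside the control group, high counts of bta-miR-206 were not tied to replicate 2. They reached 181 in co-culture replicate 2 at 6 h, 91 or more in CBX replicates 1 and 3 at 22 h, 102 in co-culture replicate 3 at 1 h and 89 in CBX replicate 3 at 1 h, and were 1 to 57 in the 9 DO libraries. Predicted miR-820 and predicted miR-721 followed the replicate 2 pattern of bta-miR-206 in the control libraries, with 59, 130 and 139 counts and 22, 19 and 19 counts in replicate 2 at 1, 6 and 22 h, and with 0 to 11 and 0 to 1 counts elsewhere. Predicted miR-721 shares its counts with predicted miR-722.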
